A study of Mus musculus with 2 samples.

Results

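The S100 family was examined as 10 genes, S100a3, S100a4, S100a6, S100a8, S100a9, S100a10, S100a11, S100a13, S100a14 and S100a16, in cultured mouse tail keratinocytes, the cells that build the epidermis. The members were found by gene symbol among the 47719 genes of 1 deposited table, and all 10 were measured. RNA was sequenced from 1 culture of the genotype K5.Pp6fl/fl and 1 of the genotype Pp6fl/fl, both on the strain background C57BL/6J, both from mice aged 8 weeks and both kept for 3 days in Medium 154CF. Both genotypes carry floxed Pp6 alleles. Pp6 is named Ppp6c in the reference and encodes the catalytic subunit of protein phosphatase 6, a serine/threonine phosphatase. The prefix K5 stands, in this field, for deletion driven from the promoter of keratin 5, a gene of basal keratinocytes, and cells that escape deletion stay in such a culture. Whether a culture came from 1 mouse or from several is not stated in the labels. The comparison asks which S100 genes differ when Pp6 is deleted, and whether the calprotectin subunits S100a8 and S100a9 differ otherwise than the members that epidermal cells express constitutively.

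S100 proteins are small calcium-binding proteins with a pair of EF-hand loops, and most act as dimers that bind and modulate other proteins. Most of their genes lie together in the epidermal differentiation complex, beside genes that build the cornified layer. S100A8 and S100A9 join to form calprotectin, which binds calcium, zinc and manganese. Calprotectin is abundant in neutrophils, and keratinocytes make it in wounded or inflamed skin. S100A10 and S100A11 are partners of annexins at membranes, and S100A6, S100A14 and S100A16 are common in epithelia.

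Estimated reads summed over genes were 17361262 for K5.Pp6fl/fl and 19374768 for Pp6fl/fl. With 1 library per genotype no difference below has a replicate check or a p-value, and each 95% interval covers counting error only. Reads were scaled to CPM (reads of a gene per 1e6 reads of the library) on TMM library sizes, and a fold is K5.Pp6fl/fl over Pp6fl/fl. A gene was called at least 2-fold apart when its log2 ratio of CPM + 0.5 was at least 1 in size, its larger value was at least 1 CPM and its interval excluded 1. Ppp6c had 707 reads in the K5.Pp6fl/fl library and 1074 in the Pp6fl/fl library, a fold of 0.733 (0.666 to 0.807), so the lower value was in K5.Pp6fl/fl as labelled. By FPKM (the authors' level per kilobase of transcript and 1e6 reads) Ppp6c was at 16.8 in K5.Pp6fl/fl and 30.6 in Pp6fl/fl. The ratio of these FPKM values was 0.548. The table has no values per exon, so these values do not show how much of the deleted part remained. The keratinocyte markers Krt14 and Krt5 were abundant, at 28562 and 17102 CPM in K5.Pp6fl/fl, against 30699 and 17800 CPM in Pp6fl/fl. Krt10 and Krt1 were the least abundant of the 8 listed, at 16.1 and 12.5 CPM in K5.Pp6fl/fl and 20.9 and 13.3 CPM in Pp6fl/fl. The log2 ratios of the 8 ran from -0.37 to 0.12. Intervals lay below 1 for 5 of them and above 1 for 1, against 26.2% and 21.8% of genes at 50 CPM or more.

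Both calprotectin subunits had more transcript in K5.Pp6fl/fl than in Pp6fl/fl, and they were the members past the 2-fold rule. S100a8 (ENSMUSG00000056054) had 194 reads in K5.Pp6fl/fl (exact Poisson interval 168 to 223) and 92 reads in Pp6fl/fl (74.2 to 113). S100a9 (ENSMUSG00000056071) had 281 reads in K5.Pp6fl/fl (249 to 316) and 129 reads in Pp6fl/fl (108 to 153). For each gene the count intervals of the libraries were apart although the K5.Pp6fl/fl library was the shallower. In CPM, S100a8 was at 11.2 in K5.Pp6fl/fl and 4.75 in Pp6fl/fl, a fold of 2.35 (1.82 to 3.04). S100a9 was at 16.2 CPM in K5.Pp6fl/fl and 6.67 CPM in Pp6fl/fl, a fold of 2.43 (1.96 to 3.01). In this background 0.811% of the 12325 expressed genes were at least 2-fold higher, where expressed means at least 1 CPM in a library, and 2 of the 10 members were. With 2 CPM added in place of 0.5 CPM, the log2 ratio of S100a8 was 0.96 and S100a9 (1.07) was the 1 member past the rule. At least 2-fold lower were 0.195% of expressed genes and 0 of the members. In bulk RNA, fewer cells of a type and less RNA per cell cannot be told apart, nor can more cells and more RNA per cell.

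The 250 bases before the start of S100a8 and S100a9 are shown because these genes differed together, and those of S100a6 and S100a11 because these abundant members were 3.62% and 1.42% lower. Sequences are from RefSeq on GRCm38.p6, 5′ to 3′ on the strand of the gene, and capitals mark matches on either strand to a TATA box (TATAAA), an AP-1 motif (TGANTCA), a C/EBP motif (TTGCNNAA) or a STAT motif (TTCNNNGAA), which do not overlap each other here. The S100a8 window is chr3:90668821-90669070 (plus strand), the S100a9 window chr3:90695722-90695971 (minus strand), the S100a6 window chr3:90612644-90612893 (plus strand) and the S100a11 window chr3:93520246-93520495 (plus strand).
S100a8: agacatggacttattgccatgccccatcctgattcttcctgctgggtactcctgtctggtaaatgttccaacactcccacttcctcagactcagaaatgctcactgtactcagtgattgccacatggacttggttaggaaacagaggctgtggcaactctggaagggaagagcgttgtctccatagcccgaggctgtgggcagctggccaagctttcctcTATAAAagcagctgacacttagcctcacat
S100a9: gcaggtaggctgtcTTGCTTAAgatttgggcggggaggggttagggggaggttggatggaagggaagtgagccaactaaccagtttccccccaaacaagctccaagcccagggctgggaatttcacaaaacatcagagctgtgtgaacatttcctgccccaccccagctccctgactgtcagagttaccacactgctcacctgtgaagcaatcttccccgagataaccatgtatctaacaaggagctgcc
S100a6: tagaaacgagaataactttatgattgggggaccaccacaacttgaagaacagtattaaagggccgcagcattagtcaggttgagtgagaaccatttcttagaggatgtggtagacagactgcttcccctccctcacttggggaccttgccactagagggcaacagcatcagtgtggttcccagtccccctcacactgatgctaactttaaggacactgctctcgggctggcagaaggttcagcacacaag
S100a11: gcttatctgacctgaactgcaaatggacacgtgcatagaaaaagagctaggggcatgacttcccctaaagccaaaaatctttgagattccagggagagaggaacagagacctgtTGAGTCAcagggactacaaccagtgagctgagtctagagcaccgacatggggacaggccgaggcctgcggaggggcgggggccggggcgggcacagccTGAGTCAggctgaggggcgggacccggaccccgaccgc
The S100a8 window holds 1 TATA box, from 30 to 25 bases before the start, and none of the other motifs. The S100a9 window holds 1 C/EBP match, TTGCTTAA, and none of the others, so the calprotectin windows share no match among these 4 motifs. The S100a11 window holds 2 AP-1 matches, both TGAGTCA, and the S100a6 window holds none of the 4. Of 32851 windows of this length in the table, 12.4% hold the TATA box, 6.75% the AP-1 motif, 9.56% the C/EBP motif and 7.02% the STAT motif. The table gave windows for 8 of the 10 members. A match describes letters, not a bound site.

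The calprotectin subunits kept nearly the same proportion to each other in both genotypes. Per length, as FPKM (the authors' level per kilobase of transcript and 1e6 reads), S100a8 stood at 61.3 in K5.Pp6fl/fl and 26.1 in Pp6fl/fl. S100a9 stood at 77.6 FPKM in K5.Pp6fl/fl and 32.1 FPKM in Pp6fl/fl. The ratio of S100a8 to S100a9 in FPKM was therefore 0.791 in K5.Pp6fl/fl and 0.815 in Pp6fl/fl. The fold of S100a8 divided by that of S100a9 was 0.968, with an exact conditional interval from 0.692 to 1.36 that includes 1. By FPKM rank among all genes S100a9 was at place 1417 in K5.Pp6fl/fl and place 3454 in Pp6fl/fl, and S100a8 at place 1824 in K5.Pp6fl/fl and place 4124 in Pp6fl/fl. In the authors' deposited table the log2 fold changes are 1.23 for S100a8 and 1.27 for S100a9, with FDR values of 1.43e-09 and 2.67e-14 that rest on 1 library per genotype.

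**Figure D1:**
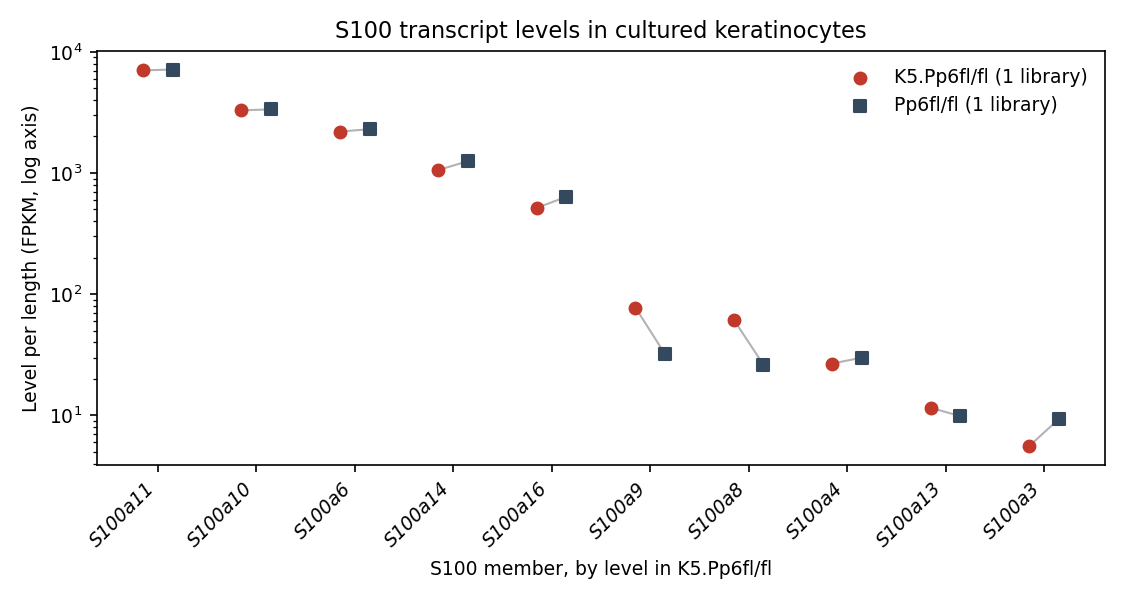
Level per length (FPKM, log axis) of the 10 S100 members in the K5.Pp6fl/fl library (red circles) and the Pp6fl/fl library (dark squares), 1 library each and ordered by the K5.Pp6fl/fl level. The order falls from S100a11, at 7027 FPKM in K5.Pp6fl/fl and 7132 FPKM in Pp6fl/fl, to S100a3, at 5.61 FPKM in K5.Pp6fl/fl and 9.35 FPKM in Pp6fl/fl, and S100a9 and S100a8 have the circle well above the square.

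Among the 2739 genes with a mean of 5 to 20 CPM, the range that holds both calprotectin genes, 30 were at least 2-fold higher (1.1%). Of those 2739 genes, 21 had a log2 ratio at or above the 1.15 of S100a8, itself among them. Over all expressed genes 99.5% had a lower log2 ratio than S100a8 and 99.6% a lower one than S100a9. The middle 95% of log2 ratios in the range of 5 to 20 CPM ran from -0.45 to 0.70, and both subunits lay above it.

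**Figure D2:**
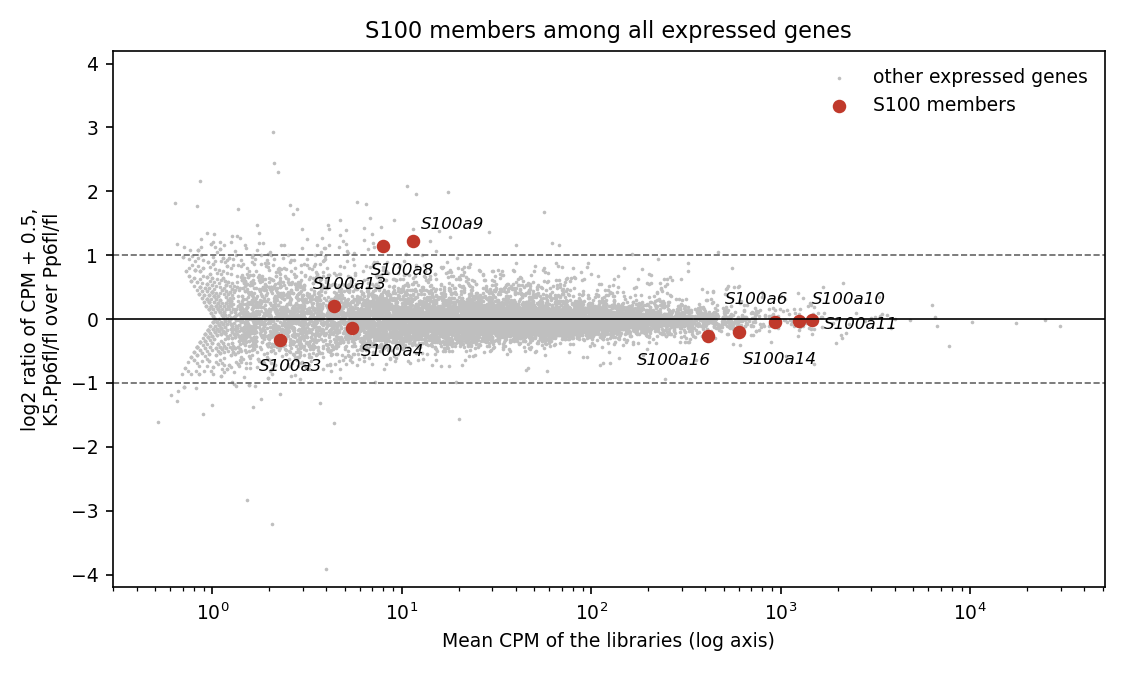
Log2 ratio (from CPM + 0.5, K5.Pp6fl/fl divided by Pp6fl/fl) against the mean CPM of the libraries (log axis) for 12325 expressed genes in grey, with the 10 S100 members in red and dashed lines at log2 ratios of 1 and -1. S100a8 and S100a9 lie above the upper dashed line, and the other 8 members lie between -0.33 and 0.20.

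The annexin partners S100a11 and S100a10 were the most abundant members and were nearly equal in the genotypes. S100a11 (ENSMUSG00000027907), a partner of annexin A1 that is also found in the cornified envelope, had 25147 reads in K5.Pp6fl/fl and 28399 in Pp6fl/fl. This is 1447 CPM in K5.Pp6fl/fl and 1468 CPM in Pp6fl/fl, a fold of 0.986 (0.969 to 1.0) whose interval just includes 1. Its FPKM was 7027 in K5.Pp6fl/fl and 7132 in Pp6fl/fl, the place 12 of all genes in both libraries. S100a10 (ENSMUSG00000041959), which forms a complex with annexin A2 and has lost calcium binding, had 21539 reads in K5.Pp6fl/fl and 24449 in Pp6fl/fl. It stood at 1239 CPM in K5.Pp6fl/fl and 1263 CPM in Pp6fl/fl, a fold of 0.981 (0.963 to 0.999). By FPKM, S100a10 was at 3285 in K5.Pp6fl/fl and 3348 in Pp6fl/fl. The ratio of S100a11 to S100a10 in FPKM was 2.14 in K5.Pp6fl/fl and 2.13 in Pp6fl/fl. A processed pseudogene of S100a11, S100a11-ps, was listed with 0 reads in both libraries.

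S100a6 (ENSMUSG00000001025) encodes calcyclin, a protein linked to proliferating epithelia. It had 15881 reads in K5.Pp6fl/fl and 18345 in Pp6fl/fl, which is 914 CPM in K5.Pp6fl/fl against 948 CPM in Pp6fl/fl, with a fold of 0.964 (0.943 to 0.985). The interval lay below 1, as it did for 26.2% of the 4538 genes at 50 CPM or more, where counting error is small. Intervals above 1 were found for 21.8% of those genes and for 0 of the 5 members in that range. In FPKM S100a6 was at 2196 in K5.Pp6fl/fl and 2297 in Pp6fl/fl, which is below S100a10 in both libraries.

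S100a14 and S100a16 differed more than the other abundant members, in the direction opposite to calprotectin. S100a14 (ENSMUSG00000042306), an epithelial member reported to signal through the receptor RAGE, had 9675 reads in K5.Pp6fl/fl and 12443 in Pp6fl/fl. In CPM it was at 557 in K5.Pp6fl/fl and 643 in Pp6fl/fl, a fold of 0.866 (0.843 to 0.889), or 13.4% lower. S100a16 (ENSMUSG00000074457), a widely expressed member, had 6484 reads in K5.Pp6fl/fl and 8675 in Pp6fl/fl. In CPM it was at 373 in K5.Pp6fl/fl and 448 in Pp6fl/fl, a fold of 0.832 (0.806 to 0.859), or 16.8% lower. Neither came near the 2-fold rule, and both intervals lay wholly below 1. The ratio of their folds, S100a14 over S100a16, was 1.04 (0.998 to 1.08). In FPKM S100a14 was at 1060 in K5.Pp6fl/fl and 1251 in Pp6fl/fl, and S100a16 at 516 in K5.Pp6fl/fl and 636 in Pp6fl/fl.

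Among the 502 genes with a mean of 300 CPM or more, the middle 95% of log2 ratios ran from -0.30 to 0.45, and both genes lay inside it. Of these 502 genes, 34 (6.77%) had a log2 ratio as low as the -0.21 of S100a14 and 21 (4.18%) one as low as the -0.26 of S100a16, the named gene counted in each. The authors' deposited table lists log2 fold changes of -0.24 for S100a14 and -0.3 for S100a16, with FDR values of 0.00149 and 3.07e-05, and marks neither as significant.

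The remaining 3 members were rare, and their counts could not separate the genotypes. S100a13 (ENSMUSG00000042312), which takes part in the export of the growth factor FGF1, had 82 reads in K5.Pp6fl/fl and 78 in Pp6fl/fl, a fold of 1.17 (0.848 to 1.62). S100a4 (ENSMUSG00000001020), a motility protein known from fibroblasts and immune cells, had 90 reads in K5.Pp6fl/fl and 112 in Pp6fl/fl, a fold of 0.895 (0.67 to 1.19). S100a3 (ENSMUSG00000001021), a protein of the hair cuticle, had 34 reads in K5.Pp6fl/fl and 50 in Pp6fl/fl, a fold of 0.757 (0.475 to 1.19). All 3 intervals included 1 and reached at least as far as 1.19, so a difference within these bounds was not detectable at this depth. For S100a3 the measure mattered, since its FPKM was 5.61 in K5.Pp6fl/fl and 9.35 in Pp6fl/fl, a ratio of 0.599. Per length S100a4 was the more abundant of the 3, at 26.8 FPKM in K5.Pp6fl/fl and 29.98 FPKM in Pp6fl/fl, while S100a13 was at 11.5 FPKM in K5.Pp6fl/fl and 9.85 FPKM in Pp6fl/fl. In the annotation S100a3 and S100a4 share exon bases with a joint gene model, Gm42674, which was listed at 0 reads in both libraries after rounding. S100a3 also shares 117 exon bases with Gm23464, a small nuclear RNA gene on the other strand, and the libraries carry no strand marks. Whether reads of Gm23464 entered the S100a3 count was not tested.

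The summed reads of S100a8 and S100a9 were 475 in K5.Pp6fl/fl and 221 in Pp6fl/fl, a fold of 2.39 (2.04 to 2.82). The summed reads of the 6 widely expressed members S100a6, S100a10, S100a11, S100a13, S100a14 and S100a16 were 78808 in K5.Pp6fl/fl and 92389 in Pp6fl/fl, a fold of 0.95 (0.941 to 0.959). The fold of the pair divided by that of the 6 was 2.52 (2.14 to 2.97), a value that does not depend on how the libraries are scaled. It compares 2 libraries and not the genotypes at large. Of the 6, none was at least 2-fold apart, against 1.01% of expressed genes, and 4 had an interval below 1 and 0 above 1. All of them but S100a13 are at 50 CPM or more, where 26.2% of genes had an interval below 1 and 21.8% above. Over all expressed genes these shares were 17.4% and 16.6%. The sum is mostly S100a11, S100a10 and S100a6, while S100a13 had a fold above 1 and the intervals of S100a11 and S100a13 included 1. The log2 ratios of the 6 ran from -0.26 to 0.20 with a median of -0.04, close to the median of -0.01 over all expressed genes.

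Calprotectin remained a minor part of the family in both libraries. All 10 members together took 79407 reads in K5.Pp6fl/fl and 92772 in Pp6fl/fl, which is 0.457% of all reads in K5.Pp6fl/fl and 0.479% in Pp6fl/fl. S100a8 made up 0.244% of the member reads in K5.Pp6fl/fl (exact binomial interval 0.211% to 0.281%) and 0.0992% in Pp6fl/fl (0.08% to 0.122%). S100a9 made up 0.354% in K5.Pp6fl/fl (0.314% to 0.398%) and 0.139% in Pp6fl/fl (0.116% to 0.165%). S100a11 took 31.7% of the member reads in K5.Pp6fl/fl and 30.6% in Pp6fl/fl, S100a14 12.2% in K5.Pp6fl/fl and 13.4% in Pp6fl/fl, and S100a16 8.17% in K5.Pp6fl/fl and 9.35% in Pp6fl/fl. Per length, S100a11 stood 115-fold above S100a8 in K5.Pp6fl/fl and 273-fold above it in Pp6fl/fl.

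**Figure D3:**
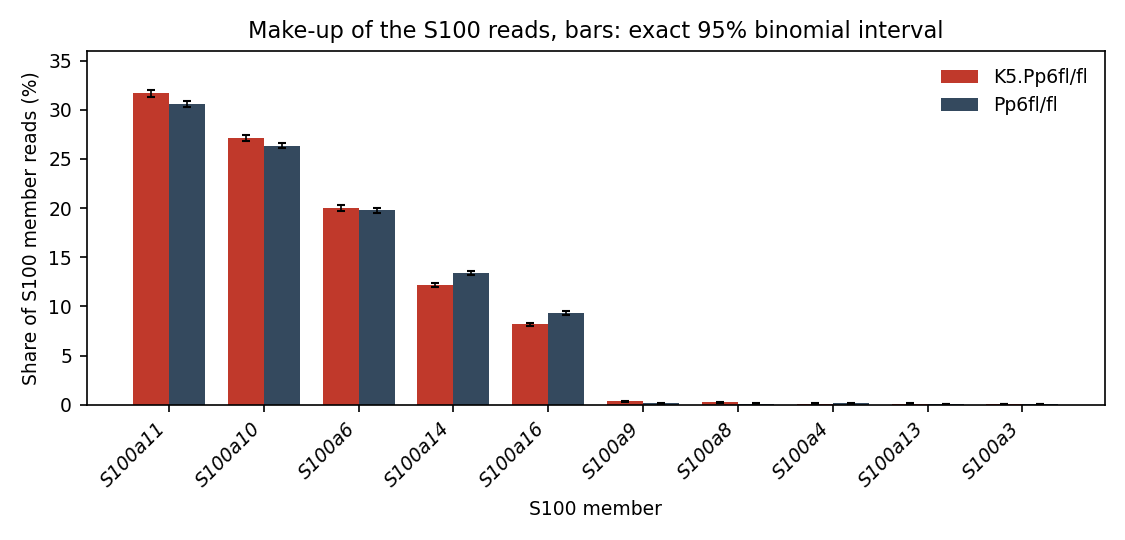
Share of the summed reads of the 10 S100 members taken by each member (percent, exact 95% binomial interval) in the K5.Pp6fl/fl library (red) and the Pp6fl/fl library (dark). S100a11, S100a10 and S100a6 take the largest shares in both libraries, and the calprotectin bars stay under 0.4% in each.

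All S100 genes with at least 1 CPM but S100pbp, which encodes a binding protein and is no S100 protein itself, lie on chromosome 3. In the RefSeq order S100a1, S100a13, S100a14 and S100a16 stand at one end, followed by S100a3, S100a4, S100a6, S100a7a, S100a8 and S100a9, and S100a11 and S100a10 lie beyond 54 further protein-coding genes that follow S100a7l2. S100a7a, the mouse relative of human psoriasin and the neighbour of S100a8, had 164 reads in K5.Pp6fl/fl and 131 in Pp6fl/fl, a fold of 1.39 (1.1 to 1.77). S100a1, known from heart muscle and at the far end, had 98 reads in K5.Pp6fl/fl and 145 in Pp6fl/fl, a fold of 0.752 (0.576 to 0.979). Intervals lay above 1 for the adjacent genes S100a7a, S100a8 and S100a9, and below 1 for S100a1, S100a14, S100a16, S100a6, which stands next to S100a7a, and S100a10. Over all expressed genes 16.6% had an interval above 1 and 17.4% one below 1, and at 50 CPM or more 21.8% and 26.2%. S100pbp was at 18.2 CPM in K5.Pp6fl/fl and 19.8 CPM in Pp6fl/fl, a fold of 0.919 (0.789 to 1.07). S100a2, S100a5, S100g and S100z had 0 reads in both libraries, and S100b, a marker of glia and melanocytes, 0 reads in K5.Pp6fl/fl and 1 in Pp6fl/fl. A count of 0 allows up to 0.173 CPM in K5.Pp6fl/fl and 0.155 CPM in Pp6fl/fl.

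**Figure D4:**
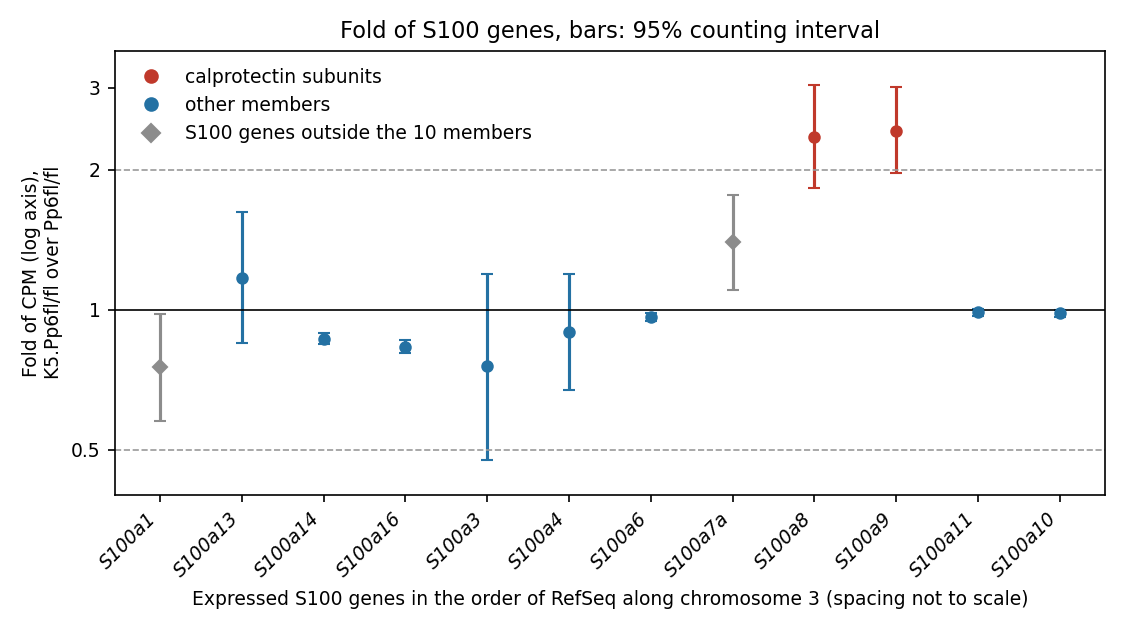
Fold by CPM (K5.Pp6fl/fl divided by Pp6fl/fl, log axis) with its 95% counting interval for the expressed S100 genes of chromosome 3, in RefSeq order with spacing not to scale. S100a8 and S100a9 (red) lie above the dashed line at 2, their neighbour S100a7a (grey diamond) is at 1.39, and S100a14 and S100a16 (blue) are at 0.866 and 0.832.

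Of 10 annexins 4 had an interval above 1 and 2 one below, and the median log2 ratio was 0.09. The shares were 16.6% and 17.4% of expressed genes, and 21.8% and 26.2% of genes at 50 CPM or more. None was at least 2-fold apart, against 1.01% of expressed genes. Anxa1, the partner of S100a11 and an anti-inflammatory protein, was at 1947 CPM in K5.Pp6fl/fl and 1377 CPM in Pp6fl/fl, a fold of 1.41 (1.39 to 1.44), and 94.8% of expressed genes had a lower log2 ratio. Since S100a11 hardly differed, its FPKM ratio to Anxa1 was 4.81 in K5.Pp6fl/fl and 6.96 in Pp6fl/fl. Anxa2, the partner of S100a10, was at 3496 CPM in K5.Pp6fl/fl and 3324 CPM in Pp6fl/fl, a fold of 1.05 (1.04 to 1.06), and the FPKM ratio of S100a10 to Anxa2 was 1.02 in K5.Pp6fl/fl and 1.1 in Pp6fl/fl.

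Of 9 receptors and surface proteins that bind S100 proteins 7 were expressed and none was at least 2-fold apart, against 1.01% of expressed genes. Intervals lay above 1 for 2 of the 7, Tlr4 and Nptn, and below 1 for 1, Cd68, against 16.6% and 17.4% of expressed genes. Tlr4 had the highest ratio of the 7, a fold of 1.48 (1.11 to 1.98), while its FPKM ratio was 1.09. Cd68 had a fold of 0.84 (0.74 to 0.953). Bsg, a receptor for S100A9 that is also called basigin, was at 327 CPM in K5.Pp6fl/fl and 338 CPM in Pp6fl/fl, a fold of 0.967 (0.933 to 1.0), and Nptn, a receptor for S100A8, had a fold of 1.11 (1.04 to 1.19). Ager, which encodes RAGE, had 2 reads in K5.Pp6fl/fl and 4 in Pp6fl/fl. Of 10 target and scaffold genes 9 were expressed and none passed the rule, against 1.01% of expressed genes. Intervals lay above 1 for 4 of the 9 and below 1 for 1. The shares were 16.6% and 17.4% of expressed genes, and 21.8% and 26.2% of genes at 50 CPM or more. Ahnak, a scaffold of the complex of S100A10 and annexin A2, had a fold of 1.01 (0.997 to 1.02), and Myh9, the myosin that S100A4 binds, had a fold of 0.859 (0.847 to 0.871).

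Of the 7 fused-type S100 genes, large envelope proteins with an S100 domain at one end, all 7 had ratios above 0 with a median log2 ratio of 0.65, against -0.01 over all expressed genes. The interval lay above 1 for 3 of them, against 16.6% of expressed genes, and included 1 for the other 4, Tchh, Hrnr, Tchhl1 and Crnn. The rule was passed by 1, against 0.811% of expressed genes. This was the filaggrin relative Flg2, with 35 reads in K5.Pp6fl/fl and 10 in Pp6fl/fl, a fold of 3.9 (1.89 to 8.82). Flg2 was low, at 2.01 CPM in K5.Pp6fl/fl and 0.517 CPM in Pp6fl/fl. Flg2, Tchhl1 and Crnn reached 1 CPM in K5.Pp6fl/fl only. Their ratios above 0 thus follow from the floor and add nothing to the count of 7.

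Among 10 antimicrobial genes 3 were expressed and none passed the rule, against 1.01% of expressed genes. All 3 had an interval above 1, against 16.6% of expressed genes, with a median log2 ratio of 0.62. Defb1, a beta-defensin, was at 49.0 CPM in K5.Pp6fl/fl and 43.3 CPM in Pp6fl/fl, a fold of 1.13 (1.03 to 1.25), and the protease inhibitor Slpi had a fold of 1.57 (1.31 to 1.88). Of 13 cytokine genes measured that are known to induce calprotectin, 6 were expressed, all 6 with a ratio above 0. The interval lay above 1 for 5 of them, against 16.6% of expressed genes, and included 1 for Il1f8, with 2 past the rule, against 0.811% of expressed genes. Tnf had 164 reads in K5.Pp6fl/fl and 62 in Pp6fl/fl, a fold of 2.94 (2.19 to 4.01). Il1f6, the gene of the cytokine IL-36 alpha, had 23 reads in K5.Pp6fl/fl and 7 in Pp6fl/fl, a fold of 3.66 (1.52 to 10.1). At 1.32 CPM in K5.Pp6fl/fl and 0.362 CPM in Pp6fl/fl, Il1f6 counts as expressed through K5.Pp6fl/fl only. Its ratio above 0 thus follows from the floor. Il6, Il17a, Il17f, Il22, Ifng and Osm had 0 reads in both libraries. Of 15 regulators of the calprotectin genes 13 were expressed, with a median log2 ratio of 0.11, and 8 had an interval above 1 and 3 one below. The shares were 16.6% and 17.4% of expressed genes, and 21.8% and 26.2% of genes at 50 CPM or more. None of the 13 was at least 2-fold apart, against 1.01% of expressed genes. The 2 most abundant were Hif1a, a fold of 1.08 (1.05 to 1.11), and Jun, a fold of 0.856 (0.829 to 0.884). The highest ratios were those of Bcl3, a fold of 1.75 (1.38 to 2.22), and Fos, a fold of 1.64 (1.28 to 2.11).

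Calprotectin is a main product of neutrophils, so the markers of that lineage were read beside it. Of 16 neutrophil and myeloid markers 10 had 0 reads in both libraries, among them Ly6g, Mpo, Elane, Ngp, Lyz2 and Ptprc. The summed level of the 16 was 4.43 CPM in K5.Pp6fl/fl and 5.58 CPM in Pp6fl/fl, and Cd14 made up most of it, with 67 reads in K5.Pp6fl/fl and 102 in Pp6fl/fl. The Langerhans cell markers Cd207, Cd74, H2-Ab1, H2-Aa and Itgax had 0 reads in both libraries, and the sixth, Epcam, which epithelial cells also express, was at 124 CPM in K5.Pp6fl/fl and 67.5 CPM in Pp6fl/fl. For S100a4, the 7 fibroblast markers summed to 2.13 CPM in K5.Pp6fl/fl and 1.76 CPM in Pp6fl/fl, with Lum at 0 in both. For S100a3, the 8 measured hair cuticle and cortex markers summed to 20 reads in K5.Pp6fl/fl and 30 in Pp6fl/fl, with Krt35 at 0 in both. The 8 melanocyte markers summed to 22.1 CPM in K5.Pp6fl/fl and 14.8 CPM in Pp6fl/fl, and 5 of them were expressed. Intervals lay above 1 for 3 of the 5 and below 1 for 0, against 16.6% and 17.4% of expressed genes. Pmel had a fold of 2.23 (1.52 to 3.31), Dct 2.12 (1.36 to 3.36) and Tyrp1 1.99 (1.39 to 2.9), sizes close to those of calprotectin, and all 3 missed the rule on the log2 scale with 0.5 CPM added, Pmel at 0.998. Mitf, the most abundant of the 8, had a fold of 0.9 (0.694 to 1.17). The 4 T cell markers summed to 1.84 CPM in K5.Pp6fl/fl and 2.69 CPM in Pp6fl/fl, with Cd3e and Cd3g at 0 in both, and the 3 endothelial markers to 1.32 CPM in K5.Pp6fl/fl and 0.62 CPM in Pp6fl/fl. The part of these cells in the S100 values was not tested beyond these levels.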

How the data were processed

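Polyadenylated RNA of 1 K5.Pp6fl/fl and 1 Pp6fl/fl keratinocyte culture was sequenced, per the labels' protocols, on a TruSeq kit without strand marks. RSEM, edgeR and the build mm8 are named, without role or version, in the submitters' processing notes. Details of alignment, annotation and filtering were not given in the sources used here. Per gene, the authors deposited an estimated count that is multiplied by 1 constant per library. Division by that step (1.05737 for K5.Pp6fl/fl, 0.945742 for Pp6fl/fl) made 97.4% and 97.3% of values under 100 reads whole within 0.01 reads, and reads were then rounded. The design had assumed unscaled counts. The authors also deposited FPKM values, log2 fold changes and p-values with their FDR, per the file headers.

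Symbols were matched by Ensembl ID for 47219 of 47719 genes. The TMM factors (edgeR 4.0.16, R 4.3.3) were 1.0012046 for K5.Pp6fl/fl and 0.9987969 for Pp6fl/fl. Fold intervals are exact conditional binomial (Clopper-Pearson, 95%), and count intervals are exact Poisson. They cover counting error only, because the labels name no molecular identifiers and PCR copies would count as separate reads. The interval code was tested on simulated data. DESeq2 1.42.0 size factors, unscaled library totals, other pseudocounts and floors, and FPKM were tried as alternatives. The reference (GRCm38) differs from mm8 and served for symbols, gene order, overlaps and promoter sequence. A looser NF-kB motif was dropped because it matched too many windows.

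The members, gene lists and rules were chosen with earlier results of these data known. All 10 members are named, and of each further list the genes past the 2-fold rule or, where none passed, the 2 most abundant, with Anxa1, Anxa2 and Ppp6c. S100 genes outside the members, and markers, are named by their levels. Ager, Tlr4, Cd68, Bcl3, Fos, the melanocyte genes, Il1f8, the inducing cytokines at 0 and markers at 0 were chosen after their values were seen.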

Additional observations from a re-analysis of the deposited data

How the results depend on the processing

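The directions of all 10 members, and of the summed calprotectin pair, were the same under each alternative that could be computed. A pseudocount or a floor cannot change a direction, so only the scaling and FPKM alternatives could have done so. The scaling alternatives moved no log2 ratio by over 0.01. S100a13 and S100a3 have no value with a floor of 5 CPM. With a pseudocount of 2 CPM the log2 ratio of S100a8 was 0.96, short of the 2-fold rule, so that 1 member was called higher in place of 2, while S100a9 (1.07) and the sum (1.13) still passed. A larger pseudocount shrinks low genes by construction. The log2 ratio of S100a9 ran from 1.07 to 1.26 over all alternatives. Over all genes the count at least 2-fold higher was 100, against 173 with a pseudocount of 0.1 CPM, 34 with 2 CPM, 49 with a floor of 5 CPM and 232 by FPKM. The count at least 2-fold lower was 24, against 57, 5, 4 and 140 under the same settings. The FPKM setting used no counting interval. Depth limits S100a3, S100a4 and S100a13, whose intervals span 1. No paired analysis was possible because each genotype has 1 library.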
